A study of Mus musculus with 6 samples.

Results

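Tissue-resident macrophages settle in an organ and renew there, whereas monocyte-derived macrophages arrive from the blood. In mouse fat, skin and mammary tissue, resident macrophages are known for scavenger receptors, C-type lectins and other endocytic receptors, with which they clear proteins, sugars and dying cells. General macrophage genes such as Csf1r, the receptor of the growth factor Csf1, and Cd68, a lysosomal glycoprotein, are expressed by resident and recruited macrophages alike.

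The genes described here are 10 such resident macrophage genes, chosen by symbol: Cd163, Mrc1, Stab1, Folr2, Lyve1, Cd209a, Clec10a, Gas6, F13a1 and Cbr2. The list was drawn up with the differences between these tumours already known, so the comparison of Bptf KD with control is given for it as a description, without a test. All 10 were among the 12393 genes that the array could name, and they had 11 of the 20380 probe sets named to 1 gene, 2 of them for Lyve1. The 10 were also among the 9248 genes left after dim probe sets were removed (mean log2 level of 6.09 or below). Cd209a, with a mean of 6.72 over the 6 tumours, came close to that level in the Bptf KD tumours. Levels of different probe sets are not comparable, so each gene is compared between tumours and not with another gene.

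RNA was measured on Affymetrix arrays in 6 tumours, 1 array each: 3 Bptf KD tumours and 3 control tumours. The mouse mammary tumour line 4T1 had been depleted of Bptf, the largest subunit of the NURF chromatin remodelling complex, with short hairpin RNAs carried by an MMLV retrovirus. The sources used here do not give what the control cells carried. In both groups 10000 cells were placed in a mammary fat pad (the fourth) of NSG hosts, whose genotype is labelled Ifrg2r -/-, and tumours were collected on day 21. Such hosts are known to have no mature lymphocytes and no natural killer cells, and their macrophages and dendritic cells are known to be defective, which limits the model for the cells described here. The 4T1 cells are mouse cells too, so the arrays do not tell host RNA from tumour cell RNA. The genes were read in whole tumour pieces, so fewer cells of a type and less RNA per cell cannot be told apart.

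The question for resident macrophage genes was whether their levels differ between tumours of Bptf KD and of control cells. Values are log2 RMA levels, on which a difference of 1 is 2-fold, and differences are Bptf KD minus control. Median levels of the arrays were 7.65 to 7.70 in Bptf KD tumours and 7.60 to 7.70 in controls. Bptf itself was at 9.60, 9.56 and 9.99 in Bptf KD tumours 1, 2 and 3, against 10.69, 9.77 and 10.59 in controls 1, 2 and 3 (difference -0.63, limma adjusted p = 0.371). The second of these controls had Bptf at 5.41 to 7.59 on the other probe sets, below every Bptf KD tumour. Across genes it correlated at 0.934 and 0.939 with the other controls, which correlated with each other at 0.986. With the Bptf KD tumours it correlated at 0.925 to 0.942, and the other controls did at 0.964 to 0.973, so it stood apart from both groups. This second control is called the tumour labelled control 2, it counts as a control in every difference, and differences are also given without it.

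Cd163, Mrc1, Stab1 and Folr2 are uptake receptors of resident macrophages. Cd163 takes up haemoglobin bound to haptoglobin. It was at 8.93, 7.95 and 8.81 in the Bptf KD tumours, and 10.02, 11.25 and 10.80 in controls 1, 2 and 3, which gives means of 8.56 ± 0.53 and 10.69 ± 0.62 (SD, n = 3 each). Every Bptf KD tumour lay below every control, and the difference of -2.13 (SE 0.38), 4.37-fold lower, was the largest of the 10. Mrc1, the mannose receptor, was at 11.75, 11.57 and 12.03 in Bptf KD tumours and 12.53, 12.75 and 12.31 in controls. Here too the groups did not overlap, with a difference of -0.75 (SE 0.17), 1.68-fold lower.

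Stab1, a scavenger receptor that is also found on sinusoidal endothelium, was at 8.82, 8.50 and 9.29 in Bptf KD tumours and 9.56, 9.20 and 9.26 in controls. Bptf KD tumour 3 lay above 2 of the controls, so the groups overlapped (difference -0.47, SE 0.22). Folr2, which binds folate, was at 10.03, 9.89 and 10.45 in Bptf KD tumours and 10.51, 10.32 and 10.26 in controls. The groups overlapped for Folr2 as well, and the difference of -0.24 (SE 0.17) was within the SD of 0.29 among Bptf KD tumours.

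Lyve1, Cd209a and Clec10a bind sugars at the cell surface. Lyve1 is a hyaluronan receptor that lymphatic endothelium shares with macrophages around vessels. Its brighter probe set was at 9.15, 8.92 and 8.84 in Bptf KD tumours and 9.78, 10.40 and 9.90 in controls, a difference of -1.06 (SE 0.19), and its other probe set gave -1.09. On both probe sets every Bptf KD tumour lay below every control.

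Cd209a, a mouse relative of the human lectin DC-SIGN that dendritic cells also make, was at 6.16, 6.06 and 6.14 in Bptf KD tumours and 7.36, 7.29 and 7.31 in controls. The tumours of each group were close to each other, with SDs of 0.05 and 0.04, and the difference was -1.20 (SE 0.11). In Bptf KD tumours the level was near the dim level of 6.09, where the share of background is not known, so the 2.30-fold difference may be understated. Clec10a, a lectin for galactose and N-acetylgalactosamine, was at 7.16, 7.41 and 7.25 in Bptf KD tumours and 8.89, 9.62 and 8.52 in controls. Its groups were separated by more than 1 log2 unit, and the difference of -1.74 (SE 0.27), 3.33-fold lower, came second to that of Cd163.

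Gas6, F13a1 and Cbr2 are no receptors. Gas6 is a secreted ligand of the receptor kinases Tyro3, Axl and Mertk and marks dying cells for uptake. It was at 8.76, 8.92 and 9.66 in Bptf KD tumours and 9.73, 10.08 and 9.74 in controls, so that the groups did not overlap but Bptf KD tumour 3 came within 0.1 of the lowest control (difference -0.74, SE 0.25). Cbr2, a carbonyl reductase that mouse fat and lung also express, was at 8.56, 8.80 and 9.32 in Bptf KD tumours and 9.99, 10.42 and 10.11 in controls. The groups were apart for Cbr2, by a difference of -1.28 (SE 0.22), 2.43-fold lower.

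F13a1, the catalytic subunit of the clotting transglutaminase factor XIII, went the other way. It was at 13.05, 12.57 and 13.27 in Bptf KD tumours and 12.89, 12.80 and 12.22 in controls. The groups overlapped, and the difference of 0.33 (SE 0.25) was within the SDs of 0.36 in both groups.

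**Figure D1:**
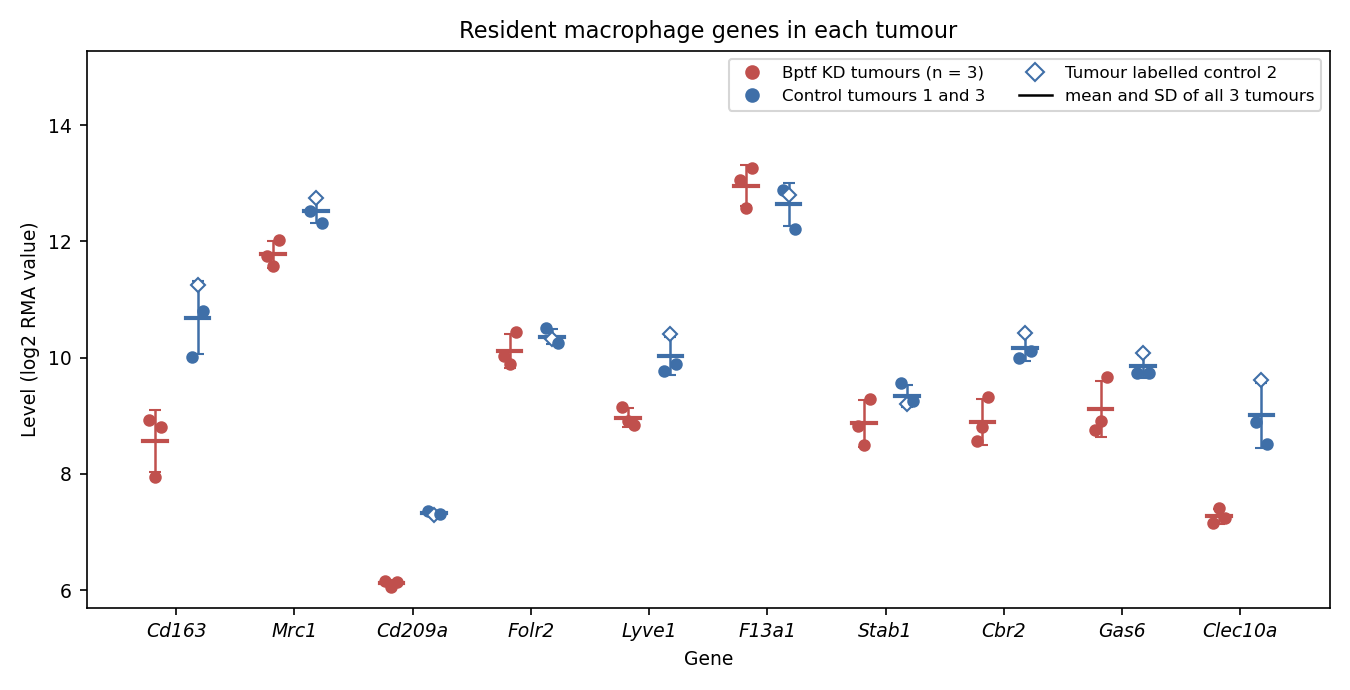
Log2 RMA levels of the 10 resident macrophage genes (x axis) in each tumour, on the brightest probe set of each gene, with the mean and SD of the 3 tumours of a group. Bptf KD tumours are red and left of the controls, which are blue, and the open diamond is the tumour labelled control 2. Cd163, Mrc1, Cd209a, Lyve1, Cbr2, Gas6 and Clec10a have all Bptf KD tumours below all controls, while Folr2, F13a1 and Stab1 overlap.

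Thus 9 of the 10 genes had a negative difference, against 39.8% of all genes tested, and 7 of the 10 had every Bptf KD tumour below every control, against 8.17% of all genes. The median difference of the 10 was -0.90, and that of all 9248 genes was 0.06. In the limma fit over all genes, 1 of the 10, Cd209a, was past an adjusted p of 0.05, where 0.811% of all genes were. Nothing is read from these counts, since the same contrast lay behind the list. The number past the threshold depended on single tumours and on the processing. It was 5 without the tumour labelled control 2 (Cd163, Cd209a, Lyve1, Cbr2 and Clec10a, where 4.46% of all genes were), 2 without control 1 (Cd163 and Cd209a, 0.789% of all genes), and 0 without control 3 (0.108%) or without any 1 of the Bptf KD tumours (0 to 0.0649%). It was 3 with each gene's probe sets averaged (0.848%), 2 with the probe set of largest SD (0.736%), 2 with limma's trended and robust variances (0.854%), 6 with array weights (18.1%) and 0 with the stricter filter (0.602%). The stricter filter removed Cd209a before the test, so that 0 covers the 9 other genes and says nothing about the call of Cd209a. Before adjustment, limma put 7 of the 10 below a p of 0.05, all lower (5.82% of all genes). Without the tumour labelled control 2, 9 of the 10 were negative (44% of all genes), the 5 past the threshold were all lower (2.52% of all genes), 7 had every Bptf KD tumour below both other controls (18.9%) and 0 had every one above (27.6%). Taken by probe set, 10 of the 11 were negative (39.7% of all 14572 probe sets), 8 did not overlap (7.44%) and 1, that of Cd209a, passed (0.261%). The sign of each of the 10 differences was the same in all alternatives in which the gene was tested, 14 for Cd209a and 15 for each of the others.

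The 10 genes did not move as 1 block across tumours of the same group. Within the Bptf KD group, tumour 3 was highest in 6 of the 10 genes, tumour 1 in 3 and tumour 2 in 1. The tumour labelled control 2 was the highest control in 6 genes, control 1 in 4 and control 3 in 0. The tumour labelled control 2 stood highest for Cd163, Mrc1, Lyve1, Cbr2, Gas6 and Clec10a, and was the lowest control for Stab1 and Cd209a. Averaged over the 10 genes, levels were 9.24, 9.06 and 9.51 in the Bptf KD tumours and 10.13, 10.41 and 10.04 in controls. Mrc1 followed this average most closely, with a root mean square distance of 0.10 over the 6 tumours after centring, and Cd163 (0.71) and F13a1 (0.66) least.

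Five-prime regions were set beside these levels because most of the genes were lower together while F13a1 was not. RefSeq (GRCm38.p6) gave the 250 bases before to 50 after a transcription start for 8 of the 10 genes, 10 regions in all, with 2 starts each for Folr2 and F13a1. Clec10a and Lyve1 were not among them. Capitals mark GAGGAA, a core that the myeloid factor PU.1 binds, and TGCTGA, a part of the site of MAF factors, on either strand (TTCCTC and TCAGCA when read on the other).
Cd163, chr6:124304401-124304700, plus strand: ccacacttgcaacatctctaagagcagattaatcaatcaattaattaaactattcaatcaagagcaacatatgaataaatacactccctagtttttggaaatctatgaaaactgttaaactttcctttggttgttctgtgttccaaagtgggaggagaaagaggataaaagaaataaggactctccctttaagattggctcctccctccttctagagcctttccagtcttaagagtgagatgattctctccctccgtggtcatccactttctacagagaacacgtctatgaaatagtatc
Cd209a, chr8:3748935-3749234, minus strand: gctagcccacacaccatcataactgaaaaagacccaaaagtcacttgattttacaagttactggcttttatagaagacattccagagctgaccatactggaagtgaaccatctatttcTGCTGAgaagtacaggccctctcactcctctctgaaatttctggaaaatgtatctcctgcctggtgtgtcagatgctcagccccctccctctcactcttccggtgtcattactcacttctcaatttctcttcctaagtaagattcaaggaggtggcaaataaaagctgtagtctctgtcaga
Cbr2, chr11:120731972-120732271, minus strand: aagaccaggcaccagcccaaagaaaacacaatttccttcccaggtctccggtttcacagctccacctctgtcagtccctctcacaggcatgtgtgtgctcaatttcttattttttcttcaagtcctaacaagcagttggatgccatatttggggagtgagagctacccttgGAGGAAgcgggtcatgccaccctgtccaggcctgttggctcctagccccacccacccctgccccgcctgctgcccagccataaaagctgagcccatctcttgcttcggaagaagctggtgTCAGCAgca
F13a1, first start, chr13:37050195-37050494, minus strand: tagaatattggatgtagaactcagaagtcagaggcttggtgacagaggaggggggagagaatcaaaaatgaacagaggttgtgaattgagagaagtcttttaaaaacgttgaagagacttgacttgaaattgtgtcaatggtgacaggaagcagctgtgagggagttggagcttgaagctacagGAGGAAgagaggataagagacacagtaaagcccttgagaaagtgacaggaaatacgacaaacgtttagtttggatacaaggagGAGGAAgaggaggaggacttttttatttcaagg
F13a1, second start, chr13:37049164-37049463, minus strand: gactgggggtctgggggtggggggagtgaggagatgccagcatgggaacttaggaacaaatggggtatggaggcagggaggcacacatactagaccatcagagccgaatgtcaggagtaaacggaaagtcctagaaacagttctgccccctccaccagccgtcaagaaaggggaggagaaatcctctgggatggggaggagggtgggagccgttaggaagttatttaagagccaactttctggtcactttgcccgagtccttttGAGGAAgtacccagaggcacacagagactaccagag
The regions of Cd163 and Cd209a, which were lower in Bptf KD tumours, held no GAGGAA, whereas that of Cbr2, also lower, held 1 and those of F13a1, which was not lower, held 2 and 1. Of the 10 regions 5 held GAGGAA, those of Mrc1, Stab1, Cbr2 and both of F13a1, against 28.3% of 32851 mouse promoters. TGCTGA was in 5 as well, those of Cd209a, Stab1, Cbr2 and both of Folr2, against 19.5% of all. The AP-1 motif TGACTCA was in 1, the second start of Folr2 (5.2% of all), and the E-box CANNTG, which reads alike on both strands, in all 10 (72.3% of all). These letters are descriptions and no sites of binding, no overlap between different motifs was counted out, and 10 regions are too few for a share to carry weight.

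Levels were next set against the mean of Csf1r and Cd68 of each tumour, taken as a reading of general macrophage content. Csf1r was at 12.20, 11.92 and 12.83 in Bptf KD tumours and 12.75, 11.66 and 12.35 in controls, and Cd68 at 10.59, 10.74 and 10.75 in Bptf KD tumours and 11.00, 9.72 and 10.66 in controls. The tumour labelled control 2 was lowest of all 6 on both. Their mean was 11.40, 11.33 and 11.79 in Bptf KD tumours and 11.88, 10.69 and 11.51 in controls, with group means of 11.51 ± 0.25 and 11.36 ± 0.61 (SD, n = 3 each). It differed by 0.15 with all tumours, with a two-sided exact permutation p of 0.9, where 3 against 3 cannot go below 0.1, and by -0.19 without the tumour labelled control 2. Neither gene passed over all genes (limma adjusted p = 0.960 for Csf1r and 0.815 for Cd68). The tumour labelled control 2 was also lowest on the mean of 24 general macrophage genes, but by less. That list mean was 11.2 there, 11.6 and 11.3 in controls 1 and 3, and 11.5 to 11.8 in Bptf KD tumours. Genes of that list went both ways in the tumour labelled control 2, and those named next were chosen after their values were seen. Adgre1 (10.80), Itgam, Cd53 and Cd14 were highest of all 6 there. Fcgr3 (11.10), Laptm5, Fcgr1, Mpeg1, Ctss and C1qc were among those lowest there.

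Subtracting the mean of Csf1r and Cd68 moved every gene of a tumour by the same amount. The median of all genes thus became -0.09 and each difference 0.15 lower than on the levels. Relative to Csf1r and Cd68, Cd163 was at -2.47, -3.38 and -2.98 in Bptf KD tumours and -1.86, 0.56 and -0.71 in controls 1, 2 and 3. Clec10a was at -4.24, -3.92 and -4.54 in Bptf KD tumours and -2.99, -1.07 and -2.99 in controls, and Cbr2 at -2.84, -2.53 and -2.47 in Bptf KD tumours and -1.89, -0.27 and -1.40 in controls. For all 3 genes the groups did not overlap, and the tumour labelled control 2 stood above the other controls by over 1 log2 unit.

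Relative to Csf1r and Cd68, Mrc1 was at 0.36, 0.24 and 0.24 in Bptf KD tumours and 0.66, 2.06 and 0.81 in controls. Its relative level was nearly the same in the 3 Bptf KD tumours, with an SD of 0.07, against 0.77 among controls. Folr2 was even closer among Bptf KD tumours, at -1.37, -1.44 and -1.34, and controls 1 and 3 were at -1.37 and -1.25, next to them, while the tumour labelled control 2 was at -0.37. F13a1 was at 1.66, 1.24 and 1.48 in Bptf KD tumours and 1.02, 2.11 and 0.72 in controls, so the tumour labelled control 2 was highest and the other controls lowest of all 6.

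The relative level of Cd209a was -5.24, -5.27 and -5.65 in Bptf KD tumours and -4.52, -3.40 and -4.20 in controls. For Lyve1 the brighter probe set was at -2.25, -2.41 and -2.95 in Bptf KD tumours and -2.10, -0.29 and -1.61 in controls. Both genes kept the groups apart. Stab1 separated the groups on this scale but not on that of levels, at -2.58, -2.83 and -2.50 in Bptf KD tumours and -2.32, -1.49 and -2.25 in controls. Gas6 did the reverse: its relative levels were -2.64, -2.41 and -2.13 in Bptf KD tumours and -2.15, -0.61 and -1.77 in controls, and Bptf KD tumour 3 lay just above control 1.

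**Figure D2:**
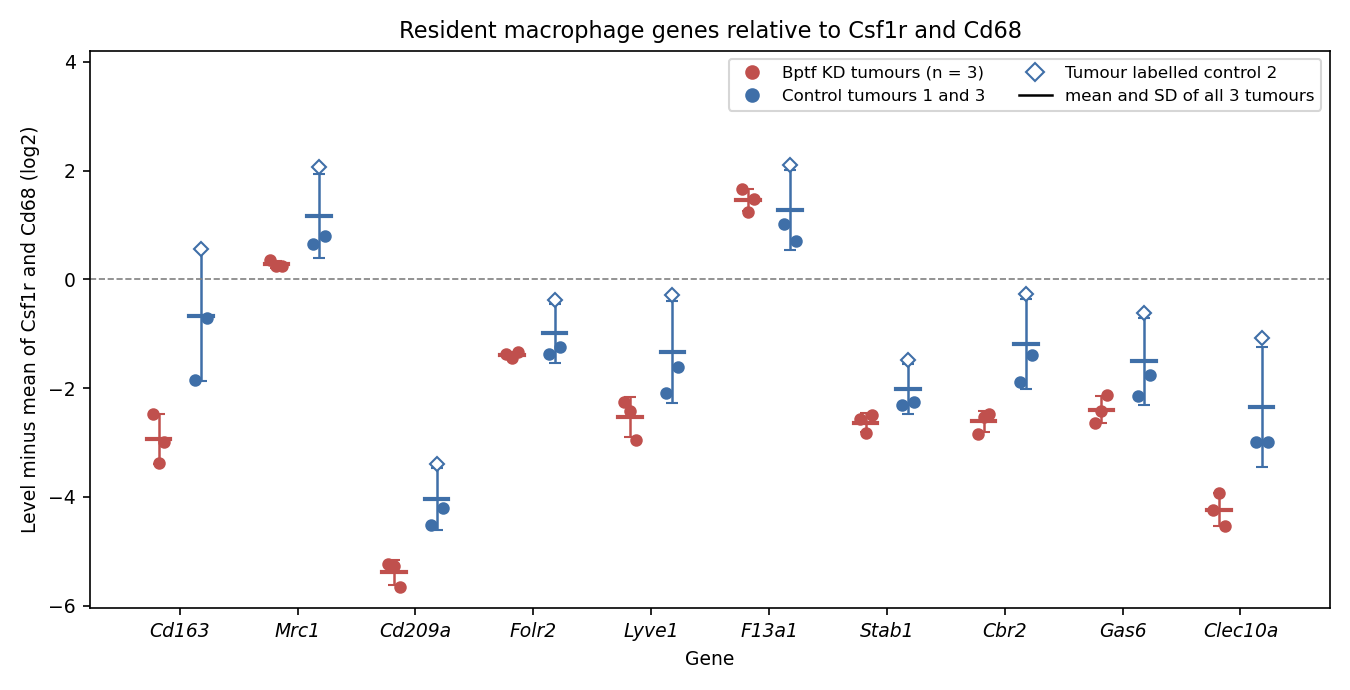
Log2 level of each of the 10 genes minus the mean of Csf1r and Cd68 of the same tumour (y axis), with the mean and SD of the 3 tumours of a group. Bptf KD tumours are red and left of the blue controls, the open diamond is the tumour labelled control 2, and the dashed line marks a level equal to that mean. The diamond is the highest point for every gene, and without it the controls stand closer to the Bptf KD tumours, except for F13a1, where they stand farther away. A low mean of Csf1r and Cd68, as in that tumour, raises all its points alike.

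Relative differences ran from -2.28 for Cd163 to 0.18 for F13a1, with a median of -1.05, and 9 of the 10 were negative, as were 65.4% of all genes on this scale. The groups did not overlap in 7 of the 10, lower in Bptf KD tumours (4.07% of all genes), and in 0 were all Bptf KD tumours higher (1.15%). In limma 0 of the 10 were past an adjusted p of 0.05, where 0.26% of all genes were, and before adjustment 5 were lower with a p under 0.05 (2.79%). Again this contrast lay behind the list and nothing is read from the counts. Without the tumour labelled control 2 the median was -0.57, beside a median of 0.23 for all genes, and 4 were past the threshold (Cd163, Cd209a, Cbr2 and Clec10a, where 2.93% of all genes were). The groups then did not overlap in 7 that were lower (5.1% of all genes) and in 1 that was higher, F13a1 (20.5%). The number was also 4 without control 1 (1.78% of all genes) and 2 without control 3 (0.779%), and 0 without any 1 of the Bptf KD tumours (0.0108 to 0.433%). It depended on the genes subtracted as well. It was 7 with C1qa, C1qb and C1qc (3.03% of all genes), 6 with the mean of the general macrophage list (1.96%), 2 with Csf1r alone (0.8%) and 0 with Cd68 alone (0.314%), and 1 with no filter on dim probe sets (0.557%).

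Leaving out the tumour labelled control 2 changed the relative differences more than the levels. Cd163 then differed by -1.85 as a level and -1.66 relative to Csf1r and Cd68, and Clec10a by -1.43 and -1.25. For Folr2 the level differed by -0.26 without that tumour and the relative value by -0.08. For F13a1 these were 0.41 and 0.59, so that all Bptf KD tumours lay above controls 1 and 3 on the relative scale. The sign of the relative difference of F13a1 turned without control 3 and with C1qa, C1qb and C1qc in place of Csf1r and Cd68, where it was lowest at -0.10, and the other 9 genes kept a negative sign in every alternative.

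**Figure D3:**
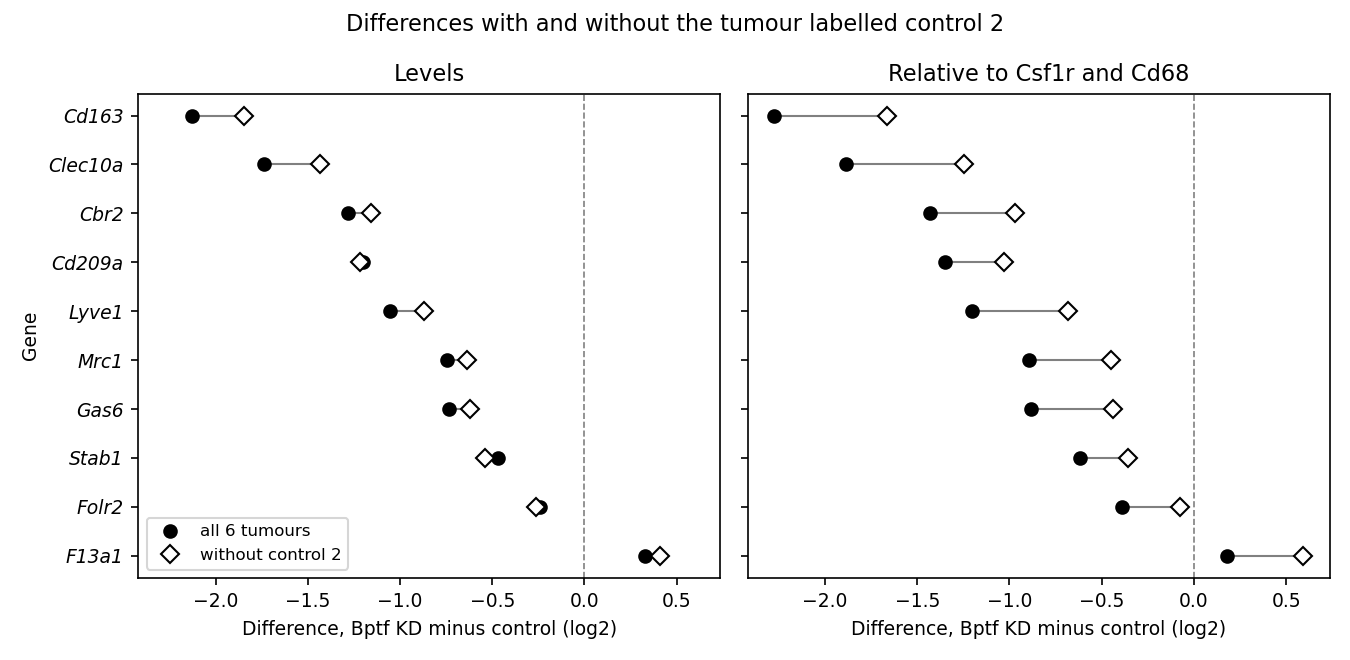
Difference of Bptf KD minus control (log2, x axis) for each of the 10 genes, on levels (left) and relative to Csf1r and Cd68 (right). Filled circles use all 6 tumours and open diamonds leave out the tumour labelled control 2. Cd163 is lowest in each panel at -2.13 and -2.28, F13a1 alone lies above 0, and Folr2 comes to -0.08 on the right without that tumour.

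Other genes known from resident macrophages were read from a separate list. Of 30 genes, 27 had a probe set and 25 were tested, Marco and Cd209b being dim. Their median difference was -0.37, beside 0.06 for all genes, with 18 negative and 7 at 0 or above. Igf1, an insulin-like growth factor that macrophages and fibroblasts secrete, fell by 1.90 on the log2 scale (limma adjusted p = 0.0470), and it was the 1 gene past the threshold, where 0.811% of all genes were. It was at 7.98, 7.90 and 8.76 in Bptf KD tumours and 9.80, 10.54 and 10.01 in controls. The call held without the tumour labelled control 2 (adjusted p = 0.0246) and ended without any other 1 tumour (adjusted p from 0.0599 to 0.191, limma). It held in 6 of 15 alternatives (adjusted p 0.00236 to 0.191, limma).

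The remaining resident genes did not pass. Of these, 9 were lower and 1 was higher at an unadjusted p under 0.05 in limma. Over all 9248 genes 538 were lower and 708 higher at that level, to be set beside these counts and those of the lists below. Ccl8, a chemokine, was at 11.04, 11.88 and 11.07 in Bptf KD tumours and 12.92, 14.18 and 13.30 in controls (difference -2.14, limma adjusted p = 0.0625). Cd209d, a relative of Cd209a, was at 5.56, 6.05 and 5.66 in Bptf KD tumours, below the dim level, and 7.12, 7.62 and 6.65 in controls. The relatives Cd209f and Cd209g and the complement receptor Vsig4, chosen after their values were seen, differed by -2.14, -1.85 and -1.35. They had all Bptf KD tumours below all controls, as did 8.17% of all genes. Cd209g had a mean of 5.72 in Bptf KD tumours, which is below the dim level. How far probe sets of the Cd209 family bind each other's RNA was not tested. Id3, a regulator of transcription that many cell types express, differed by 0.96. It alone had all Bptf KD tumours higher, as did 11.8% of all genes. In 10 of the 25 all Bptf KD tumours were lower (8.17% of all genes), and in 14 the groups overlapped. Among these 14 were Cd5l (-0.78), Pf4 (-0.21), Selenop (-0.12), Mertk (0.05) and Slc40a1 (0.31), chosen after their values were seen. Without the tumour labelled control 2, 6 of the 25 were past the threshold, where 4.46% of all genes were.

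Partners of the 10 genes were read from a list of ligands, receptors and enzymes. Haptoglobin (Hp), which carries haemoglobin to Cd163, was at 7.86, 10.05 and 9.42 in Bptf KD tumours and 11.94, 13.24 and 11.93 in controls (difference -3.26, limma adjusted p = 0.0760). Fat cells are known to make haptoglobin. Pros1, a ligand of Tyro3 and Mertk, differed by -0.64, Mrc2, a receptor related to Mrc1, by -0.46, and Cbr1, a relative of Cbr2, by 0.42. Of 22 genes 15 were tested and 0 passed in limma, with 3 lower and 1 higher at an unadjusted p under 0.05, and their median was -0.19. Of 20 genes tested for growth and polarising signals of macrophages 0 passed as well, with 1 lower and 4 higher at an unadjusted p under 0.05 in limma. Among them Pparg, a nuclear receptor of fat cells and of some resident macrophages, differed by -1.17, with Bptf KD tumours at 5.38 to 5.93, below the dim level, and controls at 6.43 to 7.13. Fkbp5, a glucocorticoid target, and Cebpb, a myeloid and fat cell factor, each differed by 0.58, and Csf3, the neutrophil growth factor, by 0.53.

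General macrophage genes mostly had differences of the other sign. All 24 of them were tested, 20 were positive and 4 negative, and the median was 0.25. Of all 9248 genes 5565 were positive, with a median of 0.06. In 8 of the 24 all Bptf KD tumours lay above all controls (11.8% of all genes), and in 0 all lay below (8.17%). At an unadjusted p under 0.05 in limma 6 were higher and 0 lower. Cybb, the membrane subunit of the phagocyte oxidase, was at 8.70, 8.81 and 8.91 in Bptf KD tumours and 8.09, 8.08 and 8.0 in controls. It rose by 0.75 (limma adjusted p = 0.0491). The call held without the tumour labelled control 2 (adjusted p = 0.0238) and ended without any other 1 tumour (adjusted p from 0.0845 to 0.224, limma). It held in 4 of 15 alternatives (adjusted p 0.00273 to 0.224, limma). Aif1, a calcium-binding protein of macrophages, and C1qb and C1qc, chains of complement C1q, each differed by 0.40 and did not pass. The defining markers were bright in every tumour, with a list mean of 11.5 to 11.8 in Bptf KD tumours and 11.2 to 11.6 in controls. With C1qa, C1qb and C1qc as the base in place of Csf1r and Cd68, all 10 resident genes were negative, and with the mean of the general macrophage list 9 were. These bases were themselves higher in Bptf KD tumours, by 0.35 and 0.23, which lowered every gene alike. The median of all genes was then -0.29 and -0.17, so nothing is read from these counts. The difference between the 10 genes and the general list was not tested, since the 10 were chosen on this contrast.

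Genes of macrophage activation in tumours had a median of 0.25 over 16 tested, 13 positive, and 0 passed in limma, with 2 lower and 1 higher at an unadjusted p under 0.05. Retnla, a product of macrophages exposed to interleukin-4, differed by -0.70, Fabp5, a fatty acid binding protein, by -0.64, Arg1, an arginase, by 0.42, and Mmp12, the macrophage elastase, by 0.64. Monocyte genes had a median of -0.16 over 7 tested. F10, coagulation factor X, rose by 0.77 (limma adjusted p = 0.0491), while Plac8 (-1.40), the proteoglycan Vcan (-1.10) and Nr4a1 (-0.16), a nuclear receptor of patrolling monocytes, did not pass. The call of F10 held without the tumour labelled control 2 (adjusted p = 0.0248) and ended without any other 1 tumour (adjusted p from 0.0738 to 0.224, limma). It held in 6 of 13 alternatives (adjusted p 0.00236 to 0.224, limma). Of 11 dendritic cell genes with a probe set, which bear on Cd209a and Clec10a, 10 were tested, and their median was 0.07 (-0.035 without the tumour labelled control 2). Ccr7, a homing receptor, was at 6.04 to 6.25 in Bptf KD tumours and 6.75 to 7.03 in controls, and Flt3, a growth factor receptor, at 6.37 to 6.81 in Bptf KD tumours and 7.12 to 7.48 in controls, whereas Irf8 (0.50) and Cd83 (0.66) were positive. Of these 10, 0 passed in limma, with 2 lower and 2 higher at an unadjusted p under 0.05. The list mean was 7.98 to 8.10 in Bptf KD tumours and 7.98 to 8.10 in controls, and the part of dendritic cells in the levels of Cd209a and Clec10a was not tested.

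Lyve1 and Stab1 are also endothelial. Of the lymphatic and sinusoidal markers 7 had a probe set, and 4, Prox1, Reln, Clec4g and Oit3, were dim. Of the 3 tested Pdpn differed by -0.80, Flt4 by 0.13 and Ackr2 by -0.10, with 0 passing in limma and 1 lower at an unadjusted p under 0.05. Their mean was 6.89 to 7.25 in Bptf KD tumours and 7.14 to 7.55 in controls. The 12 vascular markers had a median of 0.10 (-0.07 without the tumour labelled control 2), with a list mean of 7.74 to 7.82 in Bptf KD tumours and 7.66 to 8.03 in controls. Tek, the angiopoietin receptor, fell by 1.30 on the log2 scale (limma adjusted p = 0.00986), at 5.63 to 5.66 in Bptf KD tumours, below the dim level, and 6.79 to 7.06 in controls. That call held without control 1 (adjusted p = 0.0270) and without the tumour labelled control 2 (adjusted p = 0.00337), and ended without any other 1 tumour (adjusted p from 0.0525 to 0.0812, limma). It held in 10 of 14 alternatives (adjusted p 0.000226 to 0.0812, limma). Vwf (-0.98), the von Willebrand factor, Cldn5 (0.76), a tight junction protein, and Emcn (0.44), endomucin, did not pass.

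Markers of fat cells and fibroblasts moved in the same direction as the 10 genes. All 11 adipocyte genes tested were negative (39.8% of all genes), with a median of -2.85. Of these, 7 fell in the limma fit (0.66% of all genes), among them Fabp4, a fatty acid carrier, and Lpl, lipoprotein lipase. Another of the 7, Cidec, was at 4.94 to 5.69 in Bptf KD tumours, below the dim level, and 8.58 to 9.90 in controls. The mean of the adipocyte list was 7.29 to 8.22 in Bptf KD tumours and 10.2 to 10.9 in controls, with the tumour labelled control 2 highest. All 14 fibroblast and matrix genes were negative, with a median of -0.94. In the same fit 6 fell, beside the same 0.66% of all genes, among them the collagen genes Col1a1 and Col3a1 and the proteoglycan gene Dcn. Their mean was 10.3 to 10.6 in Bptf KD tumours and 11.4 to 11.7 in controls. The adipocyte count was 0 to 9 and the fibroblast count 0 to 9 with 1 tumour left out. Each was highest without the tumour labelled control 2 (4.46% of all genes called) and 0 without Bptf KD tumour 3 (0%). The adipocyte count was also 1 without Bptf KD tumour 1 (0.0216% of all genes) and 4 without Bptf KD tumour 2 (0.0649%). The fibroblast count was also 0 without Bptf KD tumour 1, without Bptf KD tumour 2 or without control 3 (0.108% of all genes), and 2 without control 1 (0.789%). The fat pad is the site of injection, and Cbr2 and Pparg are also genes of fat cells. The part of fat pad tissue in the levels of the 10 genes was not tested.

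Genes of skeletal muscle had a mean of 11.7 in the tumour labelled control 2, beside 8.96 and 6.31 in controls 1 and 3 and 6.19 to 9.49 in Bptf KD tumours. Keratinocyte genes also stood apart there, with a mean of 7.14 to 7.24 in Bptf KD tumours, 9.65 in the tumour labelled control 2 and 6.85 and 7.08 in controls 1 and 3. Mast cell genes had a mean of 6.54 to 6.97 in Bptf KD tumours and 7.11 to 8.27 in controls, and epithelial tumour cell genes 10.8 to 11.0 in Bptf KD tumours and 9.65 to 10.5 in controls. Mean levels of the 7 housekeeping genes measured were 12.7 to 12.8 in Bptf KD tumours and 12.7 to 12.9 in controls. As a reading of RNA quality, the 3-prime minus 5-prime difference of the Actb control probe sets was 0.76 to 1.05 in Bptf KD tumours. It was 1.23 in the tumour labelled control 2, the highest of all tumours, and 0.76 and 0.77 in controls 1 and 3. For the Gapdh control probe sets it was -0.04 to 0.04 in Bptf KD tumours and -0.08 to 0.06 in controls.

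**Figure D4:**
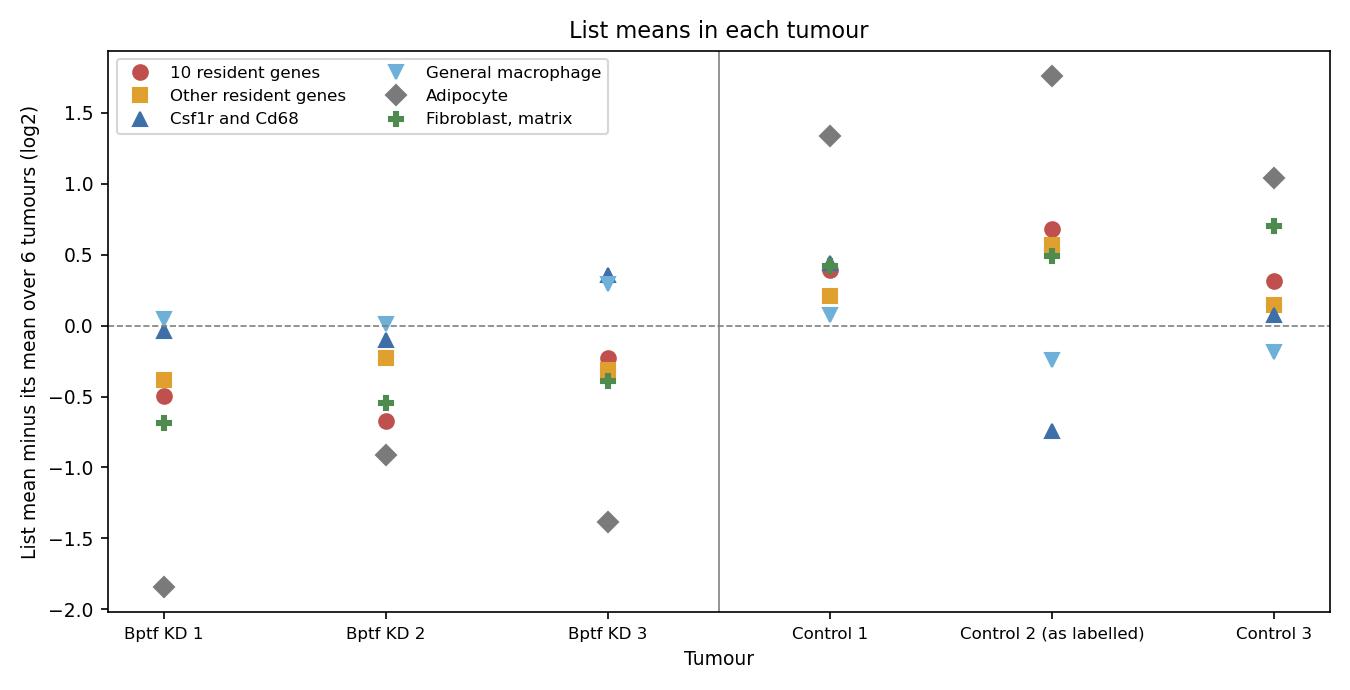
Mean log2 level of 6 sets of genes in each tumour (x axis), minus the mean of that set over the 6 tumours (y axis). The 10 resident genes, the other resident genes, the adipocyte and the fibroblast sets lie below 0 in every Bptf KD tumour and above 0 in every control. The mean of Csf1r and Cd68 and that of the general macrophage genes do not separate the groups.

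Over the 6 tumours, the genes outside the list whose centred levels came nearest to the mean of the 10 were Fbln5, a matrix protein of elastic fibres (root mean square distance 0.08), the peroxisomal transporter Abcd2 (0.11), the hormone-sensitive lipase Lipe of fat cells (0.12), Dram1, a lysosomal membrane protein (0.13), and Lifr, a cytokine receptor (0.13). Fbln5 was at 7.35, 7.37 and 7.80 in Bptf KD tumours and 8.41, 8.65 and 8.39 in controls. With 6 tumours, likeness of this kind rests mostly on the difference between the groups and is a description.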

How the data were processed

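Levels were measured in 6 tumours with 1 Affymetrix array each, 3 Bptf KD and 3 control, grouped by their titles. The deposited values are log2 expression levels that the authors made with RMA (version not stated), per the submitters' processing notes. They were read as base 2, RMA's own scale. Probe sets were named through GEO's platform annotation, which gave 1 gene for 20380, several for 691 and none for 1555, beside 64 controls of the manufacturer. Entrez identifiers linked symbols to a RefSeq table (GRCm38.p6), and 29 without a match kept their name. The probe set with the highest mean stood for a gene, and the lowest 30% of probe sets were left out. Groups were compared with limma 3.58.1 in R 4.3.3 over all 9248 genes, with Benjamini-Hochberg adjustment and a threshold of 0.05, on the levels, relative to Csf1r and Cd68, and over all probe sets. Adjusted p-values come from this limma fit. The SE of a difference is limma's, and ± is the SD of 3 tumours.

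The 10 genes and the other lists were chosen with earlier results of these data known. The other genes named were taken, in each list, from those past the threshold and otherwise from up to 4 with the smallest p. Bptf, Csf1r, Cd68 and the 5 genes nearest in pattern were added. Of the adipocyte and fibroblast genes past the threshold only some are named. Genes with values given outside this rule are marked as chosen after their values were seen. The test was tried on simulated levels of all 9248 genes (200 altered in each of 20 runs, 3 arrays a group): limma found 59.2% of changes of 1 log2 unit, 89.6% of changes of 2 log2 units, and 4.34% of the genes it called had not been altered. The simulated noise was normal, independent between genes and of the same spread on all arrays. Neither an outlying tumour nor correlated genes were simulated, so these rates need not hold for these tumours. Alternatives changed the filter, the probe set, the normalisation, the variance moderation, the array weights, a replicate block, the tumours left out and the macrophage genes subtracted. Sequence motifs in the proteins were not analysed here. The tumours are biological triplicates per the labels. The number of arrays limits the precision, and a dim level holds an unknown share of background.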

Additional observations from a re-analysis of the deposited data

How the results depend on the processing

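The median difference of the 10 resident genes was -0.90, and -1.0 to -0.75 in 14 alternatives. Relative to Csf1r and Cd68 it was -1.05, and -1.40 to -0.57 in 17. All were negative, and -0.57 was the value without the tumour labelled control 2. On the levels limma called 75 genes, but 42 with the stricter filter (lowest 50% left out), 1676 with array weights, where limma gave a convergence warning, and 0 to 412 with 1 tumour left out, 0 being without Bptf KD tumour 3 and 412 without the tumour labelled control 2. Relative to Csf1r and Cd68 it called 24, but 69 with no filter, 10 with the probe set of largest SD, 153 with the replicate block, 74 with Csf1r alone as the base, 280 with C1qa, C1qb and C1qc, 181 with the general macrophage list, and 1 to 271 with 1 tumour left out. Array weights could not be fitted on the relative values, where 1 tumour received nearly all of the weight. Over all probe sets it called 38, but 2618 with array weights, 98 with the replicate block and 0 to 503 with 1 tumour left out. The cause of these changes was not tested, except that leaving out a tumour leaves fewer samples and the stricter filter fewer genes.

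The difference in the mean of Csf1r and Cd68 turned from 0.15 to -0.185 without the tumour labelled control 2, the lowest control on both genes, and was -0.185 to 0.41 with 1 tumour left out. The median of the dendritic cell list turned from 0.07 to -0.0033 with no filter, with the mean of probe sets and with the probe set of largest SD, to -0.068 with array weights and to -0.035 without the tumour labelled control 2 (-0.035 to 0.108 with 1 tumour left out).

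The replicate numbers in the titles did not pair the tumours in every case. Tumours of the same number had deviations from their group means that correlated at 0.005, 0.279 and 0.372 across genes. Bptf KD tumours 2 and 3 correlated best with the control of their own number (-0.305 to -0.144 and -0.445 to 0.353 with the others). Bptf KD tumour 1 did not (-0.189 to 0.108 with the others). With the number as a block, limma called 107 genes on the levels, among them Cd209a and Clec10a of the 10, and 153 on the relative values, among them Cd163, Cbr2 and Clec10a. Among the 10 genes, Cd209a in Bptf KD tumours lies nearest to the dim limit.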
